A study of Mus musculus with 6 samples.

Results

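The genes described here make, sense, store and export cholesterol in mProx24, a proximal tubular line of mouse kidney (strain C57B6 per the labels). They are 31 genes chosen by name: 18 enzymes of cholesterol synthesis, 5 genes of sterol sensing and transfer (Srebf2, Scap, Insig1, Insig2 and Stard4), and 8 genes of efflux, esterification and uptake (Abca1, Abcg1, Nr1h2, Nr1h3, Mylip, Soat1, Soat2 and Scarb1). All 31 were found among the 34574 gene names of the array, with 45 probes, and each gene was represented by its brightest unflagged probe. Of the 31, 28 were well above background on all 6 arrays, Soat2 on 3, Nr1h3 on 1 and Abca1 on none. All 18 synthesis genes were above background on every array.

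RNA was measured on 6 single-colour Agilent arrays, 1 for each condition. Triple stimuli with rapamycin combined 1% oxygen, high glucose and palmitate with 0.4 µg/ml of rapamycin, which inhibits mTORC1 kinase signalling, and triple stimuli were the same without rapamycin. Hypoxia was 1% oxygen with PBS and the glucose state labelled NG, and the control was the same at 20% oxygen; the labels state no glucose concentration. Palmitate was given at 150 µM with 0.15% bovine serum albumin for 9 hours, after 12 hours of hypoxia or rapamycin where these were used. The remaining 2 arrays, high glucose alone and palmitate alone at 20% oxygen, carry opposite labels in the scanner files and in the deposited value table: array A has the scanner label High glucose and the table label High FFAs (free fatty acids), and array B the reverse. No statement is made on which stimulus either received. All cells were of 1 line, grown with fetal calf serum, which itself carries cholesterol.

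With 1 array per condition there is no replicate error, no test was possible, and every difference below compares 1 array with 1 other. As a measure of spread between probes, the log2 difference of a gene was compared between its probes. Over 3853 genes with more than 1 detected probe, the SD between probes was 0.16 to 0.25 in the various comparisons. The probes share the same pair of arrays, so variation between cultures, RNA samples or arrays is not in this SD. Between 40.3% and 43.8% of spots were well above background, and 0 were saturated. The 3 arrays at 1% oxygen lay on the second row of the slide and those at 20% on the first, so the effects of oxygen and of slide row cannot be told apart. Of 10 proximal tubule markers, Lrp2, Cubn, Aqp1 and Ggt1 were above background on all 6 arrays, Slc3a1 on 1, and Slc34a1, Slc5a2, Slc22a6, Slc22a8 and Hnf4a on none. Of 3 epithelial markers on the arrays, Krt8 and Krt18 were above background on all 6 and Epcam on none. Of 4 endothelial markers, Kdr was above background on all 6 and Pecam1, Cdh5 and Tek on none. Among fibroblast markers, Col1a1 was above background on 1 array, Col1a2 on 2, and Pdgfrb and Dcn on none.

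Cholesterol is built from acetyl-CoA, first to isopentenyl units by way of mevalonate, then to squalene and lanosterol, and from there by removal of methyl groups and shifts of double bonds. When membranes hold little sterol, the escort protein SCAP carries the transcription factor SREBP2 from the endoplasmic reticulum to the Golgi, where it is cut and released to switch on these enzymes. INSIG proteins hold SCAP back when sterol is plentiful. Excess cholesterol is exported by ABCA1 and ABCG1, whose genes are targets of the oxysterol-sensing LXR receptors, or esterified by SOAT enzymes and stored in droplets.

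SREBP2 acts with the factor NF-Y, which binds CCAAT boxes. The window from 250 bases before to 50 after the annotated start of a gene was therefore searched for a sterol regulatory element (TCACNCCAC), for CCAAT, and for an LXR element of the DR4 type, a direct repeat with 4 bases between its parts, each on both strands and with no overlap between the motifs required or excluded. Promoter sequences of RefSeq (build GRCm38.p6) were matched for 24 of the 31 genes. CCAAT was present in 14 of 15 synthesis genes with a sequence, in 3 of 4 sensing and transfer genes, and in 2 of 5 efflux, esterification and uptake genes, against 41.1% of 27025 genes. It was also present in 15 of 18 further genes of sterol sensing, trafficking and turnover and in 6 of 9 of fatty acid synthesis, both described below. In these lists the sterol element was present in 1 of 18 and 0 of 9, and the LXR element in 1 of 18 and 1 of 9. The sterol element was present in 1 of 15 synthesis genes, Hmgcs1, against 1.44% of all, and the LXR element in 1 of 5 efflux, esterification and uptake genes, Abca1, against 0.226% of all. The 250 bases before the start are shown for these 2 genes and for Idi1, the synthesis gene with the widest range over the arrays. The positions are chr13:119690101-119690350 on the plus strand for Hmgcs1, chr13:8885356-8885605 on the plus strand for Idi1 and chr4:53159896-53160145 on the minus strand for Abca1. Capitals mark TCACNCCAC and CCAAT in Hmgcs1, CCAAT in Idi1 and the LXR element in Abca1, where ATTGG is CCAAT read on the other strand.
Hmgcs1: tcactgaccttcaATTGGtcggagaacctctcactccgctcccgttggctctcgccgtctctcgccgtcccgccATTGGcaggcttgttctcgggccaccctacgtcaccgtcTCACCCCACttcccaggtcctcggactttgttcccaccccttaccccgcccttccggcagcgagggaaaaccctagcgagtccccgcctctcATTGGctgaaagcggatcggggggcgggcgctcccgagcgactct
Idi1: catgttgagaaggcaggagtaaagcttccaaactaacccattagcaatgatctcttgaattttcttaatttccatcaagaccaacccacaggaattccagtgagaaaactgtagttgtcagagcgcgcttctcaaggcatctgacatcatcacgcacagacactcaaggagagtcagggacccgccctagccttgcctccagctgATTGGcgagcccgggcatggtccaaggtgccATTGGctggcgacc
Abca1: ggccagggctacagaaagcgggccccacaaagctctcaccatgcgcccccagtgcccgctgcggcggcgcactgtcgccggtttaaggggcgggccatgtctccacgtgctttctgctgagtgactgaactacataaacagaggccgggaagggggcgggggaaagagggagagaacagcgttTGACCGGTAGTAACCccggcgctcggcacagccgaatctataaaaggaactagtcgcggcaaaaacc
The capitals describe letters and not bound sites. A promoter without a match only lacks these letters in this window.

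As a group, synthesis genes were lowest under triple stimuli with rapamycin. All comparisons with control share the same control array, so a high or low spot there enters each of them, and in a bulk sample fewer cells expressing a gene and less RNA per cell cannot be told apart. Compared with control, all 18 were lower, where 54.2% of all genes were below 0, with a median log2 difference of -0.87 against -0.04 over the 17879 genes measured. The members at least 2-fold lower were Hmgcs1 (HMG-CoA synthase), Mvk (mevalonate kinase), Mvd (mevalonate diphosphate decarboxylase), Idi1 (isopentenyl diphosphate isomerase), Nsdhl and Hsd17b7 (which act in the removal of the C4 methyl groups of sterols) and Dhcr7 (the reductase that completes cholesterol). That is 7 of 18, where 1.78% of all genes measured were at least 2-fold lower. The spots of Mvd, Nsdhl and Dhcr7 lie, with that of Tm7sf2, in the first 64 rows. In those rows 1.85% of all genes were at least 2-fold lower and 10.9% higher, against 1.77% and 3.19% elsewhere. The synthesis median was -1.10 over the 4 genes there and -0.85 over the other 14. A log2 difference of -0.5 or less was found in all 18, and in 11.6% of all genes. Markers of the proximal tubule differed on the same arrays. Lrp2 had levels of 2.03 in triple stimuli with rapamycin, 2.43 in triple stimuli, 3.74 in hypoxia, 2.85 on array A, 3.34 on array B and 3.53 in control. Aqp1 had 1.79 in triple stimuli with rapamycin, 2.27 in triple stimuli, 3.09 in hypoxia, 2.0 on array A, 3.70 on array B and 3.20 in control. Both were low on the triple stimuli arrays and on array A, while Ggt1 was higher in triple stimuli with rapamycin (-1.02) than in control (-2.19) and Cubn ranged from -0.37 to 0.14 over the 6 arrays. The part of these markers in the result was not tested. Among the synthesis genes, the smallest difference in size was that of Fdps, farnesyl diphosphate synthase, at -0.59. The mevalonate arm, from Acat2 to Fdps, had a median of -1.10 over 7 genes, and the arm from squalene to cholesterol a median of -0.86 over 11.

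**Figure D1:**
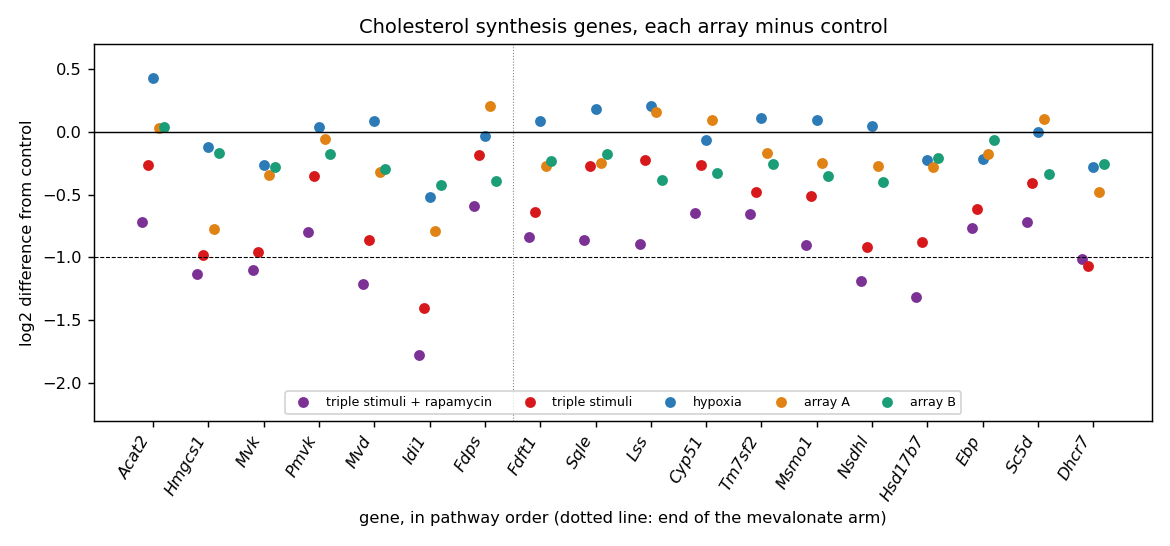
Log2 difference of each of the 18 synthesis genes from control (vertical axis), genes in pathway order (horizontal axis), 1 point per array; the dashed line marks 2-fold lower. All 18 points of triple stimuli with rapamycin lie at -0.59 or below, and those of hypoxia lie on both sides of 0, between -0.52 and 0.43.

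Idi1, which interconverts the 5-carbon building blocks of sterols, had log2 levels (signal relative to the 75th percentile of its own array) of 3.58 in triple stimuli with rapamycin, 3.96 in triple stimuli, 4.84 in hypoxia, 4.57 on array A, 4.94 on array B and 5.36 in control. It was highest in control and lowest on both triple stimuli arrays. Its level was 3.44-fold below control in triple stimuli with rapamycin (log2 difference -1.78) and 2.65-fold below it in triple stimuli (-1.40). Its probe lies at chr13:8891524-8891583 on mm9, the build of the array files.

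Hmgcs1, which makes HMG-CoA in the early mevalonate arm, had levels of 4.84 in triple stimuli with rapamycin, 5.00 in triple stimuli, 5.86 in hypoxia, 5.20 on array A, 5.81 on array B and 5.98 in control. Array A was low together with both triple stimuli arrays, and hypoxia and array B were within 0.17 of control. The differences from control were -1.14, -0.98 and -0.77 for triple stimuli with rapamycin, triple stimuli and array A.

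The kinase and the decarboxylase further along the mevalonate arm had their lowest level with rapamycin as well. Mvk stood at 4.14 in triple stimuli with rapamycin, 4.28 in triple stimuli, 4.97 in hypoxia, 4.90 on array A, 4.96 on array B and 5.24 in control. Its other probe gave a difference from control of -1.19 in triple stimuli with rapamycin, beside -1.10 for the brightest. Mvd stood at 2.25 in triple stimuli with rapamycin, 2.60 in triple stimuli, 3.55 in hypoxia, 3.14 on array A, 3.16 on array B and 3.46 in control, so hypoxia alone was the highest array.

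Late in the pathway, Hsd17b7, a 3-keto sterol reductase, had levels of 0.08 in triple stimuli with rapamycin, 0.52 in triple stimuli, 1.18 in hypoxia, 1.12 on array A, 1.20 on array B and 1.40 in control. Nsdhl, the C4 sterol dehydrogenase, had 0.71 in triple stimuli with rapamycin, 0.97 in triple stimuli, 1.94 in hypoxia, 1.62 on array A, 1.49 on array B and 1.89 in control. In both, the 2 triple stimuli arrays were the lowest of the 6. Dhcr7 had 0.14 in triple stimuli with rapamycin, 0.08 in triple stimuli, 0.87 in hypoxia, 0.67 on array A, 0.89 on array B and 1.15 in control. It was the synthesis gene that was not lower with rapamycin than without it (log2 difference 0.06, and -0.03 with each band of 64 rows of spots centred). With normexp background correction its difference from control was -0.87 in triple stimuli with rapamycin and -0.94 in triple stimuli, short of 2-fold.

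The other 11 synthesis genes ranged in their difference from control between -0.90 (Msmo1, the C4 methyl sterol oxidase) and -0.59 (Fdps) in triple stimuli with rapamycin. Between them lay Lss, lanosterol synthase (-0.89), Sqle, squalene epoxidase (-0.86), Fdft1, squalene synthase (-0.84), Pmvk, phosphomevalonate kinase (-0.80), and Ebp, the sterol isomerase (-0.76). Acat2, the cytosolic acetoacetyl-CoA thiolase, and Sc5d, the C5 desaturase, were both at -0.72, Tm7sf2, a C14 sterol reductase, at -0.65, and Cyp51, the lanosterol 14-demethylase, at -0.64. None of these 11 reached 2-fold in any comparison.

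Triple stimuli were compared with hypoxia, both at 1% oxygen. The triple stimuli array differed by high glucose and by palmitate with its albumin, where hypoxia had PBS. The parts of glucose, palmitate and albumin cannot be told apart here. All 18 synthesis genes were lower, with a median of -0.63 against -0.03 over 16979 genes. Of the 18, 11 had a difference of -0.5 or less, where 10.3% of all genes had, and 0 were 2-fold lower, where 3.03% of all genes were. The lowest were Nsdhl (-0.97), Mvd (-0.95), Idi1 (-0.88) and Hmgcs1 (-0.86), and the highest Fdps (-0.15) and Cyp51 (-0.20). The other probe of Nsdhl gave -1.19, beyond 2-fold, and those of Mvk, Pmvk, Tm7sf2 and Hsd17b7 did not reach 2-fold. Against control, all 18 were lower in triple stimuli, where 50.7% of all genes were, with a median of -0.56, and Idi1 (-1.40) and Dhcr7 (-1.07) were at least 2-fold lower, 2 of 18 where 1.72% of all genes were.

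Rapamycin was compared with its absence under triple stimuli. With rapamycin, 17 of the 18 synthesis genes were lower, where 54.7% of all genes were below 0, and the median was -0.36 against -0.03. None was 2-fold lower, where 2.15% of all genes were, and Lss (-0.66) and Sqle (-0.58) were the 2 of 18 at -0.5 or less, where 6.57% of all genes were. Dhcr7 was at 0.06 and Mvk at -0.14. For the 2 synthesis genes furthest from 0, Lss had levels of 1.68 with rapamycin and 2.35 without it. Sqle had 5.00 with rapamycin and 5.58 without it. Over all 29 members measured here, 0 were 2-fold higher with rapamycin, where 1.95% of all genes were, and 0 had a difference of 0.5 or more, where 5.5% had.

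Hypoxia alone differed little from control over the synthesis genes. Of the 18, 9 were below 0 and 9 above, where 51.6% of all genes were below, with a median of 0.02. Idi1 was lowest (-0.52) and Acat2 highest (0.43), and Idi1 was the single gene at -0.5 or less, where 4.89% of all genes were. Of all 28 members measured, 0 were 2-fold lower (0.469% of all genes), 0 were 2-fold higher (4.42%) and 0 had a difference of 0.5 or more (9.43%). When each band of 64 rows of spots was centred on its own median, the median of the list became -0.27, and that of all genes -0.16.

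**Figure D2:**
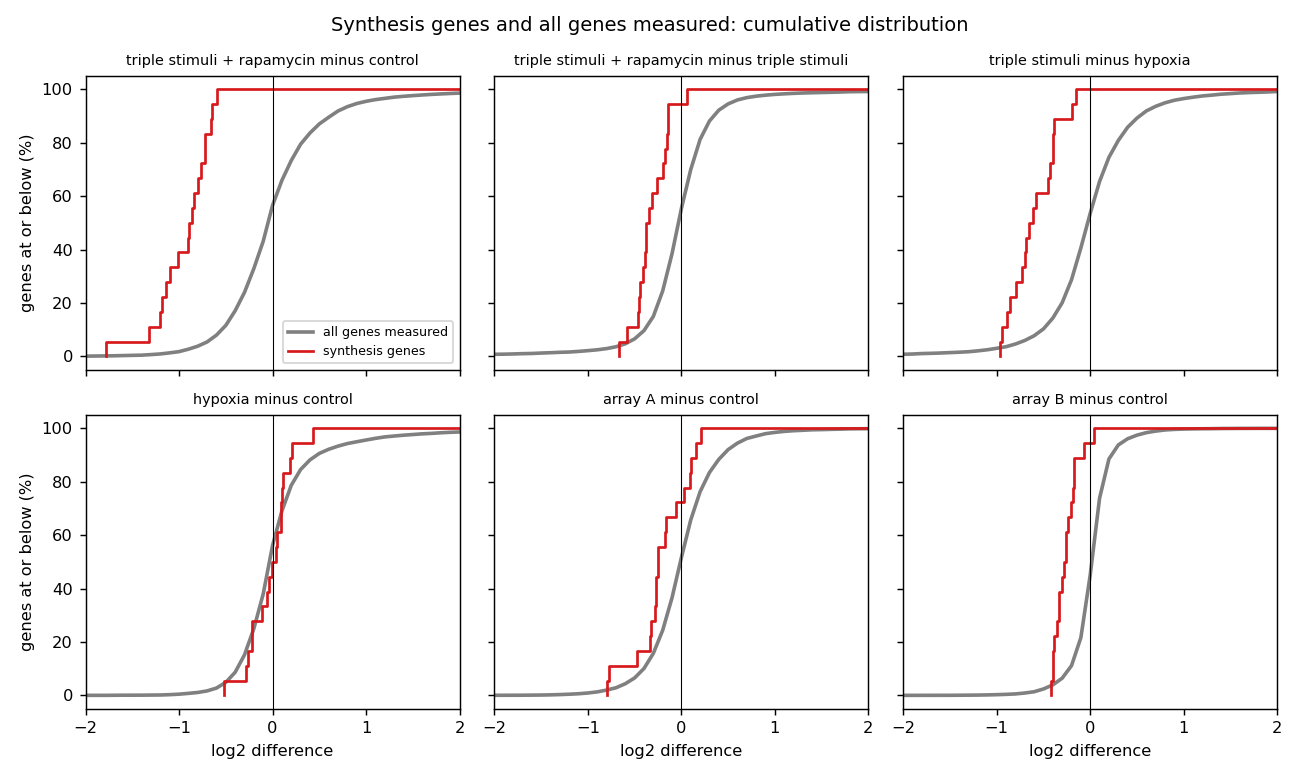
Cumulative share of genes (vertical axis, percent) at or below each log2 difference (horizontal axis) for the 18 synthesis genes (red steps) and for all genes measured (grey), in 6 comparisons. The red steps lie wholly below 0 in triple stimuli with rapamycin minus control, at a median of -0.87, and in triple stimuli minus hypoxia, and cross the grey curve in hypoxia minus control, where the median is 0.02.

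On array A, 13 of 18 synthesis genes were below control, where 51.4% of all genes were, with a median of -0.25, and 0 were 2-fold lower, where 0.909% of all genes were. Idi1 (-0.79) and Hmgcs1 (-0.77) were lowest, the 2 of 18 at -0.5 or less, where 6.55% of all genes were, followed by Dhcr7 (-0.48) and Mvk (-0.34). Fdps (0.21), Lss (0.16), Sc5d (0.10), Cyp51 (0.09) and Acat2 (0.03) were above 0. On array B, 17 of 18 were below control, where 43.3% of all genes were, with a median of -0.27 against 0.02 over all genes, and the range was from -0.42 (Idi1) to 0.04 (Acat2). None was at -0.5 or less, where 2.42% of all genes were, and 0 of 29 members were 2-fold lower (0.281% of all genes) or 2-fold higher (0.31%).

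Arrays A and B were also compared directly, a comparison added after the values were seen. The median of the synthesis genes was -0.02, and 10 of 18 were lower on array A, where 53.4% of all genes were. Hmgcs1 (-0.60) was the 1 of 18 at -0.5 or less, where 7.53% of all genes were. Fdps (0.60) and Lss (0.54) were the 2 of 18 at 0.5 or more, where 8.23% of all genes were, followed by Sc5d (0.44) and Cyp51 (0.42). Fdps had levels of 7.47 on array A and 6.87 on array B, with 7.27 in control. Lss had 2.73 on array A and 2.19 on array B, with 2.57 in control. For both genes array A was above control and array B below it. Insig1, a sterol sensor and itself an SREBP target, was placed in the same way, with 1.45 on array A and 1.01 on array B, and 1.31 in control.

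For 9 members a further probe was detected on all 6 arrays. In the comparisons of triple stimuli with rapamycin, of triple stimuli and of array A with control, both probes had the same sign in 9 of 9, with median gaps of 0.14, 0.12 and 0.09 on the log2 scale. In array B against control the sign was shared in 6 of 9, and in hypoxia against control in 7 of 9. With against without rapamycin it was shared in 7 of 9, with a largest gap of 0.45 (Stard4, at 0.20 and -0.25). Triple stimuli and hypoxia compared directly gave the same sign in 9 of 9. The widest gap in these comparisons was that of Stard4 on array B against control, at 0.23 with the brightest probe and -0.46 with the other. Hsd17b7 had a larger difference in triple stimuli with rapamycin by its other detected probe (-1.66) than by its brightest (-1.32).

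**Figure D3:**
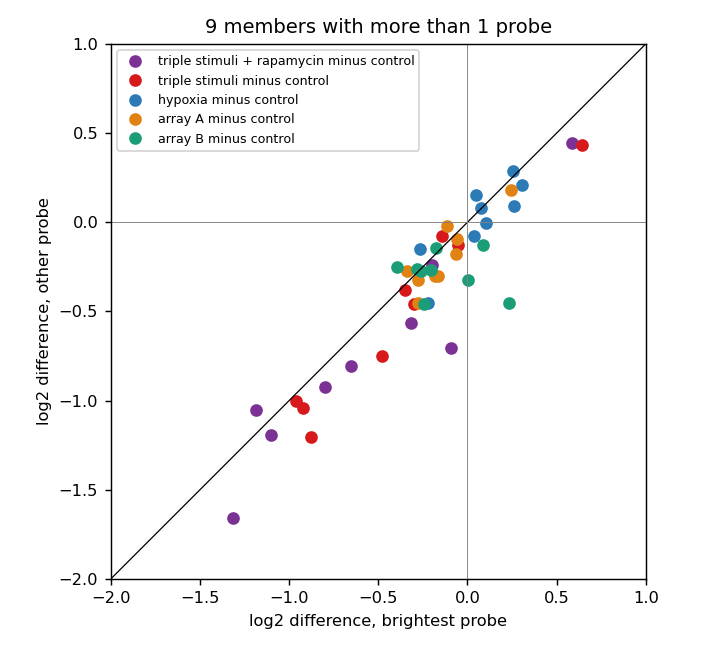
Log2 difference from control by the brightest probe (horizontal axis) and by the other probe (vertical axis) for the 9 members with more than 1 probe detected on all 6 arrays, coloured by array; the diagonal marks equal values. Points of triple stimuli reach -1.66 on the vertical axis with rapamycin and -1.21 without it. The point furthest above or below the diagonal is Stard4 on array B, at 0.23 and -0.46.

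The genes that sense and move sterol had medians of -0.32 in triple stimuli with rapamycin, -0.14 in triple stimuli and 0.25 in hypoxia, each against control over 5 genes. Insig2, the INSIG that is not induced by SREBP2, had levels of 2.69 in triple stimuli with rapamycin, 2.75 in triple stimuli, 2.37 in hypoxia, 2.35 on array A, 2.11 on array B and 2.11 in control. It was higher on both triple stimuli arrays than on the other 4, with differences from control of 0.59 and 0.64 (0.45 and 0.43 by its other probe). In triple stimuli against control 13.1% of all genes had a difference of 0.5 or more, and Insig2 was the 1 of 5 in this group that did.

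Insig1 had 0.85 in triple stimuli with rapamycin, 1.17 in triple stimuli, 1.40 in hypoxia, 1.45 on array A, 1.01 on array B and 1.31 in control, and was lowest with rapamycin. Stard4, a carrier of cholesterol between membranes, had 2.74 in triple stimuli with rapamycin, 2.53 in triple stimuli, 3.14 in hypoxia, 2.65 on array A, 3.06 on array B and 2.83 in control. The highest array was hypoxia, and the difference of triple stimuli from it was -0.61 (-0.67 by the other probe). In triple stimuli with rapamycin against control its probes differed, at -0.09 by the brightest and -0.71 by the other. Srebf2, which encodes SREBP2, was at -0.32 and -0.14 against control in triple stimuli with and without rapamycin and at 0.25 in hypoxia. Its other probe gave -0.56 with rapamycin against control, -0.49 with against without rapamycin (-0.17 by the brightest) and -0.46 on array B against control (-0.25 by the brightest). Scap was between -0.46 and -0.11 on the 5 arrays against control.

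Soat2, an acyltransferase that esterifies cholesterol and is best known from liver and intestine, had the widest range of the 31 genes. Its levels were -1.96 in triple stimuli with rapamycin, -0.59 in triple stimuli, -3.20 in hypoxia, -1.21 on array A, -5.48 on array B and -3.89 in control. It was well above background on both triple stimuli arrays and on array A and on no other. Taking the lowest detected signal of the array as a floor for the undetected side, it was at least 8.34-fold higher in triple stimuli than in control, at least 5.60-fold higher in triple stimuli than in hypoxia, and at least 5.46-fold higher on array A than in control. In triple stimuli with rapamycin it was at least 3.22-fold higher than in control, and 2.59-fold below triple stimuli without it. Of all genes measured, 5.08% were at least 2-fold higher in triple stimuli against control, 3.5% against hypoxia, 1.56% on array A against control and 4.54% in triple stimuli with rapamycin against control. The single probe of Soat2 lies at chr15:101993657-101993716 on mm9, and the array holds no other probe of this gene. With normexp background correction all these differences were smaller. The log2 difference from control was then 0.71 in place of 1.69 in triple stimuli with rapamycin, 1.65 in place of 3.06 in triple stimuli and 1.25 in place of 2.45 on array A. Triple stimuli against hypoxia gave 1.28 in place of 2.49. Rapamycin against its absence gave -0.94 in place of -1.37, short of 2-fold.

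Among leukocyte markers, Cd68, also a lysosomal gene, had levels of -0.27 in triple stimuli with rapamycin, 0.52 in triple stimuli, -0.57 in hypoxia, 1.05 on array A, -0.82 on array B and -0.87 in control. Like Soat2 it was highest in triple stimuli and on array A. Csf1r, another leukocyte marker, was ordered differently, with 3.40 in triple stimuli with rapamycin, 3.68 in triple stimuli, 4.47 in hypoxia, 3.27 on array A, 3.72 on array B and 3.77 in control. The other leukocyte markers on the arrays, Ptprc and Lyz2, were above background on none of the 6, and the part of these markers in the result was not tested.

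Soat1, the widely expressed esterifying enzyme, was above control on all 5 arrays, by 0.38 in triple stimuli with rapamycin, 0.45 in triple stimuli, 0.37 in hypoxia, 0.75 on array A and 0.41 on array B. Its spot lies in the first 64 rows, where more genes were at least 2-fold higher on the 1% oxygen arrays (10.9% against 3.85% elsewhere for triple stimuli, 9.38% against 3.38% for hypoxia); on array A these shares were 1.88% and 1.49%.

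**Figure D4:**
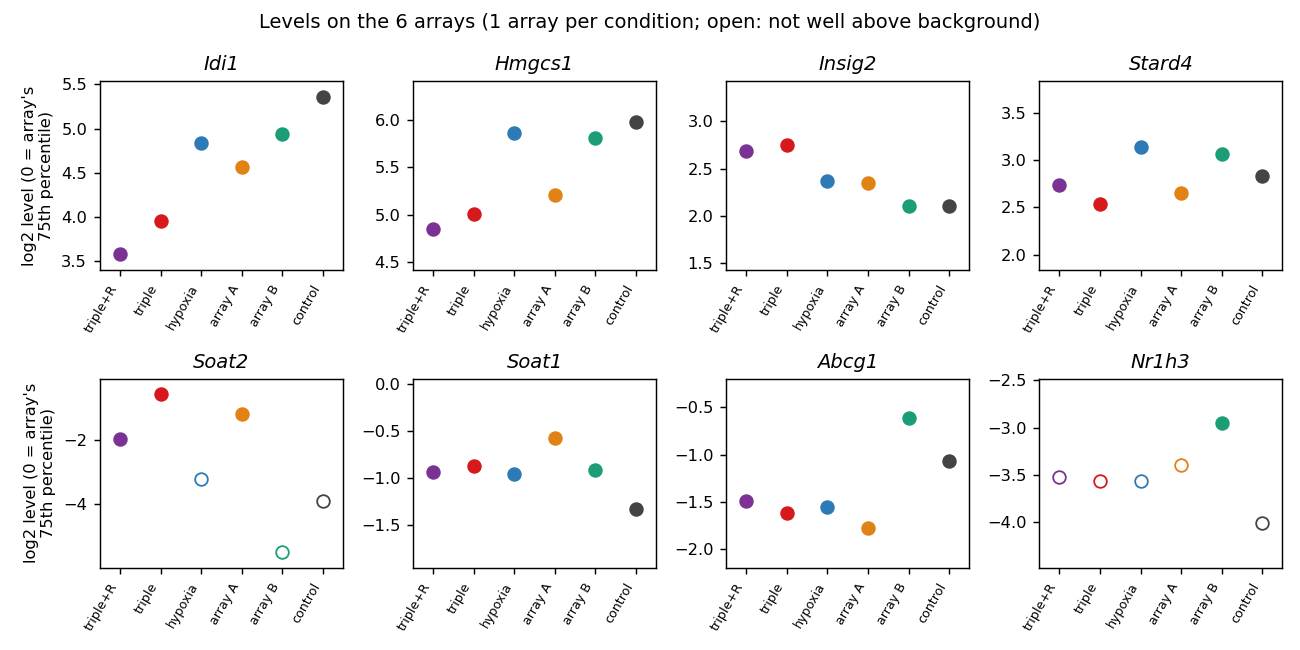
Log2 level (vertical axis, 0 is the 75th percentile of the array) of 8 members on the 6 arrays (horizontal axis), 1 point per array, open where the probe was not well above background. Soat2 is detected on the 2 triple stimuli arrays and array A, at -1.96, -0.59 and -1.21, and Abcg1 is highest on array B, at -0.62.

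Abcg1, a cholesterol exporter, had levels of -1.49 in triple stimuli with rapamycin, -1.62 in triple stimuli, -1.55 in hypoxia, -1.78 on array A, -0.62 on array B and -1.06 in control. Array B was the single array above control, by 0.45, and array A was lowest, at -0.71 against control. Array A was 2.23-fold below array B (log2 difference -1.16, and -0.78 with normexp background correction), where 1.07% of all genes were at least 2-fold lower. Soat2 was the member at least 2-fold higher on array A than on array B, by at least 4.41-fold, where 1.69% of all genes were (a log2 difference of 2.14, and 1.13 with normexp).

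Over the efflux, esterification and uptake genes measured, the median difference from control was 0.069 in triple stimuli with rapamycin, 0.17 in triple stimuli, 0.078 in hypoxia and 0.37 on array B, values that changed with the processing.

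Mylip, the ubiquitin ligase that marks lipoprotein receptors for breakdown and is an LXR target, was likewise highest on array B (0.34 against control) and lowest in hypoxia (-0.37). Its other probe was above background on no array. Nr1h3, which encodes LXR alpha, was well above background on array B alone, with a level of -2.95 there, where the lowest detected level was -3.34. Undetected values elsewhere ran from -4.01 (control) to -3.39 (array A), and Nr1h3 was at least 1.63-fold higher on array B than in control. The other probe of Nr1h3 was above background on no array, array B included. Nr1h2, which encodes LXR beta, was detected on all 6 arrays and lay between 0.05 and 0.39 above control. Its values were 0.24 in triple stimuli with rapamycin, 0.39 in triple stimuli and 0.29 in hypoxia, against 0.05 on array A and 0.07 on array B. The spots of Nr1h2 and Nr1h3 lie, like that of Soat1, in the first 64 rows. Abca1, measured by a single probe, was not well above background on any array, so no difference is given. Scarb1, the receptor for high-density lipoprotein, was within 0.20 of control on all 5 arrays.

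Of 25 further genes of sterol sensing, trafficking and turnover on the arrays, 24 were measured in each comparison. Their medians were -0.06 in triple stimuli with rapamycin and -0.02 in triple stimuli, each against control, 0.03 in triple stimuli against hypoxia and 0.05 on array A. Stard5, a sterol-binding protein, was the single gene of this list at least 2-fold different from control or hypoxia, 1 of 24 where 1.56% of all genes were at least 2-fold higher on array A against control and 3.5% in triple stimuli against hypoxia. Its levels were -2.25 in triple stimuli with rapamycin, -1.30 in triple stimuli, -2.45 in hypoxia, -0.70 on array A, -2.27 on array B and -1.95 in control, so it was highest on array A and in triple stimuli. It was 2.38-fold higher on array A than in control and 2.22-fold higher in triple stimuli than in hypoxia.

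Of 12 genes of fatty acid synthesis, which SREBP proteins also regulate, 11 were below control in triple stimuli with rapamycin, where 54.2% of all genes were. Their median was -0.51, against -0.04 over all genes. Elovl6, a fatty acid elongase (-1.86), Acaca, acetyl-CoA carboxylase (-1.21), and Fasn, fatty acid synthase (-1.08), were at least 2-fold lower, 3 of 12 where 1.78% of all genes were. All 12 were below 0 in triple stimuli against hypoxia, where 53.5% of all genes were, with a median of -0.33. Of these, 0 had a difference of -0.5 or less, where 10.3% of all genes had, and 0 were 2-fold lower, where 3.03% were. In hypoxia against control, 6 of 12 were below 0, where 51.6% of all genes were, with a median of -0.02. Elovl6 (-0.82), Fasn (-0.48) and Acaca (-0.38) were among those below 0 there.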

How the data were processed

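RNA of mProx24 cells was measured on 6 single-colour Agilent arrays. A signal intensity per spot was extracted by the authors with Agilent Feature Extraction 10.7.3.1, with spatial and multiplicative detrending and surrogate values for dim spots, per the file headers and processing notes. The deposited value table holds a ratio, which its values show to be the same signal divided by the array's 75th percentile. Its High glucose column matched the High FFAs scanner file, and the reverse (SD of the log2 difference 2.87e-07 and 2.89e-07), hence arrays A and B. Medians of the columns were 0.0561 (triple stimuli with rapamycin), 0.0544 (triple stimuli), 0.0562 (hypoxia), 0.0516 (labelled high glucose), 0.0535 (labelled high FFAs) and 0.0505 (control).

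The log2 processed signal was averaged per probe after subtracting the array's own 75th percentile (control spots excluded), and 323 of 55681 probes with an outlier flag were left out, none of a member. The older name Sc4mol was read as Msmo1. A gene entered a comparison if either array detected it well above background, an undetected side was raised to the array's lowest detected level, and a log2 difference of 1 in size was called 2-fold. No exon or UTR annotation of probes was used. The number of arrays limits the precision. Calculations used Python 3.11.15 with numpy 2.4.6 and pandas 2.3.3, and limma 3.58.1 for normexp, and were tested on simulated data. The members and lists were chosen with earlier results of these data known, as were the rule for printing levels (members 2-fold different in any comparison, and the 3 of each group with the widest range) and the 9 alternatives. The promoter rule asked for synthesis genes holding the sterol element, and that of Idi1 was added after its values were seen.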

Additional observations from a re-analysis of the deposited data

How the results depend on the processing

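No paired analysis was possible because each condition has 1 array. Over the 9 alternatives (normexp, quantile normalization, scaling on detected probes, mean of all probes, detected genes only, no filter, first 64 rows left out, centred bands of rows, deposited table), the synthesis median stayed between -1.07 and -0.78 in triple stimuli with rapamycin against control, -0.72 and -0.55 in triple stimuli against control, -0.65 and -0.55 in triple stimuli against hypoxia, and -0.40 and -0.29 with against without rapamycin. In hypoxia it was -0.27 with centred bands, where the median of all genes was -0.16 (-0.01 as reported). The count of synthesis genes at least 2-fold lower in triple stimuli against control was 2, and 3 with normexp (Idi1, Hmgcs1 and Mvk) or the mean of all probes, 5 with centred bands, and 2 under the others. Against hypoxia it was 0, and 1 with quantile normalization or the first 64 rows left out and 2 with the mean of all probes or centred bands. On array A it was 0, and 1 with the mean of all probes. The median of the efflux, esterification and uptake genes rests on 5 or 6 genes: with the mean of all probes it was 0.034 on array B (0.37 as reported). With no filter it was 0.42 in triple stimuli and 0.33 in hypoxia, where all genes had 0.26 and 0.19, and with the first 64 rows left out -0.11 and -0.37 (0.17 and 0.078 as reported). With centred bands it was -0.21 in triple stimuli with rapamycin (0.069 as reported), where all genes had -0.21. The cause was not tested. The 9 alternatives are not independent checks of a single gene. Keeping detected genes only, or using no filter, cannot change a gene detected on both arrays. Leaving out rows cannot change a gene whose brightest probe lies elsewhere. The deposited table holds the same signal, scaled by a constant for each array. Of 136 values of the 16 member differences of at least 2-fold, 130 stayed at least 2-fold and 0 turned in sign; the others were Dhcr7 in triple stimuli (-0.94) and with rapamycin (-0.87 with normexp, -0.96 with scaling on detected probes), each against control, Abcg1 between arrays A and B (-0.78), Soat2 with against without rapamycin (-0.94), and Soat2 with rapamycin against control. Soat2 in triple stimuli with rapamycin was at least 1.69 on the log2 scale above control as reported, and between 0.71 and 1.93 under the alternatives.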
